A study of Mus musculus with 6 samples.

Results

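The transcription factor p53, encoded by Trp53, and 9 genes that it is known to activate were followed in mouse CD8 T cells. The 10 genes were taken by name: Trp53, Mdm2, Cdkn1a, Ccng1, Aen, Plk2, Phlda3, Zmat3, Trp53inp1 and Btg2. They were chosen with earlier results of these data known, so their counts and median beside all tested genes are descriptions and no independent test. All 10 had a gene row among the 22095 gene rows of the deposited table. The cells were wild-type naive CD8 T cells purified from the spleens of C57BL/6 mice and stimulated for 48 h by antibodies to CD3 and CD28, standing in for antigen and costimulation, with recombinant mouse IL-2 in RPMI medium with serum. Ponatinib, a drug against the leukaemia kinase BCR-ABL that also blocks a range of further kinases, was given at 10 nM to the cells of 3 libraries, and the solvent DMSO to those of another 3. Levels were in TPM, which divide by transcript length and by the library total. The labels do not say that the libraries of a group were separate mice or cultures, and the p-values given cover the scatter among these libraries alone, which may be technical.

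The p53 protein is made all the time and is held low by the ubiquitin ligase Mdm2, which marks it for destruction. DNA damage, nucleolar stress and oncogene activity release p53 from Mdm2, and p53 then binds DNA as a tetramer and activates genes for cell cycle arrest, DNA repair and cell death, Mdm2 itself included. In activated T cells, which divide fast, p53 is known to restrain expansion, and p21, the product of Cdkn1a, limits cell cycle entry. Several of these genes also answer to signals other than p53, and Btg2 and Plk2 are known as rapid-response genes.

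The p53 consensus site is a pair of units of 10 bases, and the unit reads the same on both strands. RefSeq promoters on GRCm38.p6, covering 250 bases before to 50 bases after an annotated start, were found for 8 of the 10 genes, 10 promoters in all. A unit without mismatch lay in promoters of 5 of them, Trp53, Mdm2, Cdkn1a, Ccng1 and Aen, and in 8.36% of all 32851 promoters of the same length. A pair of adjoining units with at most 1 mismatch lay in promoters of 2 of them, Cdkn1a and Ccng1, and in 29 of the 32851 promoters, or 0.09%. These promoters are shown because the log2 fold changes of their genes with ponatinib had opposite signs, negative for Cdkn1a, which did not pass the test, and positive for Ccng1, which did. Capitals mark the units and the pairs, and each pair contains a unit without mismatch. The Cdkn1a promoter is that of the upstream start, on the plus strand at chr17:29090729-29091028, and its pair begins at position -51 from that start. The Ccng1 promoter lies on the minus strand at chr11:40755237-40755536, and its pair begins at position -195.
Cdkn1a: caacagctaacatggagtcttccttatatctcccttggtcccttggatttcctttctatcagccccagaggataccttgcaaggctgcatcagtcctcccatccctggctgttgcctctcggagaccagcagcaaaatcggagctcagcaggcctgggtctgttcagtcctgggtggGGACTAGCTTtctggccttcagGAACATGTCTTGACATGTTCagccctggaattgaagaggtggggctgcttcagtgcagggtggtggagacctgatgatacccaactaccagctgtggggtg
Ccng1: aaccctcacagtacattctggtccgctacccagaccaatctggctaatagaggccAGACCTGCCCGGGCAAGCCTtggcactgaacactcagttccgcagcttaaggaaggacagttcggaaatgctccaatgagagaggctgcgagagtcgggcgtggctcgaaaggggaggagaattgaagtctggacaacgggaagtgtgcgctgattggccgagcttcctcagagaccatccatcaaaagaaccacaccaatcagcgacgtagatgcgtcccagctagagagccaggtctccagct
The other annotated start of Cdkn1a, with its promoter at chr17:29093519-29093818, held no unit in its window. A match is a description of letters and does not show binding, and the table does not separate the starts of a gene.

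DMSO replicate 3 stood apart from the other DMSO libraries. Of the 10 genes it was the highest DMSO library in 6, the lowest in 3 (Ccng1, Phlda3 and Zmat3) and between the others in 1, Trp53. Against the mean of the other DMSO libraries it ranged from 0.657 times for Phlda3 to 1.58 times for Cdkn1a. Genes of the mitochondrial genome held 7.16% to 8.19% of TPM with ponatinib, and with DMSO 9.76% in replicate 1, 10.7% in replicate 2 and 4.78% in replicate 3.

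With ponatinib 7 of the 10 genes were higher and 0 were lower: Mdm2, Ccng1, Aen, Plk2, Phlda3, Zmat3 and Trp53inp1 (limma, Benjamini-Hochberg adjusted p under 0.05 over all 10039 tested genes; 8 higher and 0 lower at an unadjusted p under 0.05). Among all tested genes 23.9% were called higher and 9.54% lower at that adjusted threshold. The shares at an unadjusted p under 0.05 are not given here. The increases ran from a log2 fold change of 0.30 for Mdm2 to 0.66 for Plk2. The median over the 10 genes was 0.46, beside 0.09 over all tested genes. Trp53 and Btg2 lay above 0 without passing the test. Cdkn1a, which encodes the cell cycle inhibitor p21, lay on the other side, at -0.46, and did not pass either. Every ponatinib library lay above every DMSO library in 8 genes, where 34.5% of all tested genes did so, and below in 1, Cdkn1a, where 14.9% did. In bulk RNA, fewer cells of a type and less RNA per cell cannot be told apart.

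The median of all tested genes lay at 0.09 on the log2 scale. Scaled by medians of ratios, which puts that median at 0, 48.5% of the calls were on the higher side, and 71.5% on the deposited scale. With that scaling 5 of the 10 genes were higher and 0 lower, Aen, Mdm2, Plk2, Trp53inp1 and Zmat3, where 14.7% of all tested genes were higher and 15.6% lower. The directions of all 10 were the same on both scales. Without DMSO replicate 3, 8 of the 10 genes were higher, Trp53 included, and 0 lower (limma), where 35.3% and 10.1% of all tested genes were. The part of this library's difference in the results was not tested beyond leaving it out.

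**Figure D1:**
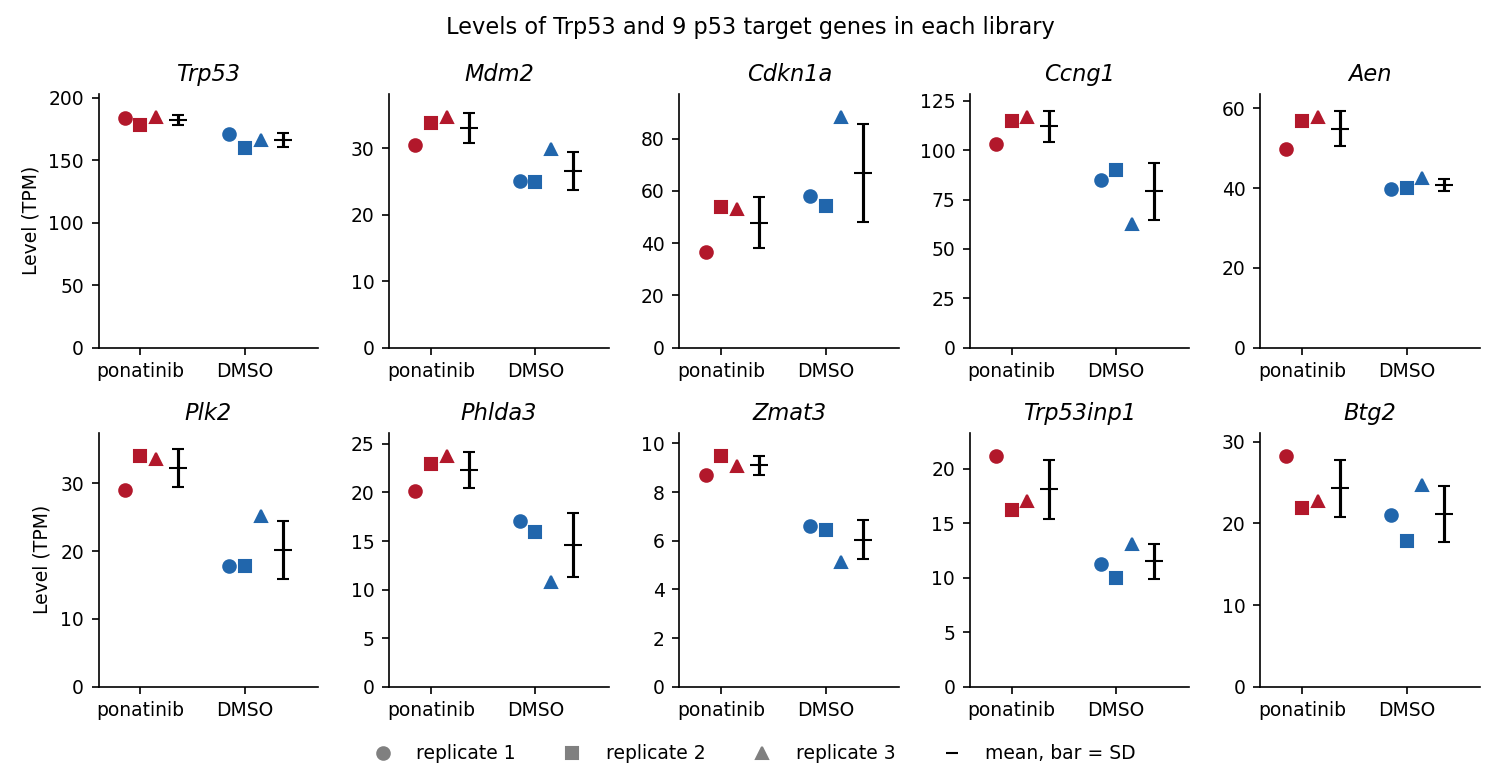
Levels in TPM (y axis, from 0) of Trp53 and 9 p53 target genes in each of the 3 ponatinib and 3 DMSO libraries; marker shape gives the replicate number, and the bar beside the points is the mean with its SD (n = 3 per group). The ponatinib points stand above all DMSO points in 8 panels, below them in Cdkn1a, and among them in Btg2.

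Trp53 itself was the most abundant of the 10. It stood at 184, 178 and 185 TPM in the ponatinib libraries and at 171, 159.8 and 166 TPM in the DMSO libraries. The groups did not overlap, but the distance between the nearest libraries was small beside the level. The means were 182 ± 3.97 TPM with ponatinib and 166 ± 5.71 TPM with DMSO (SD, n = 3 each), a log2 fold change of 0.14 (SE 0.05, limma adjusted p = 0.0556). Relative to the median of all tested genes its log2 fold change was 0.05, and with medians of ratios it was 0.04 (adjusted p = 0.589). Without DMSO replicate 3 the adjusted p was 0.0476 at the same fold change. The gene spans chr11:69580359-69591873 on the plus strand of GRCm38, the build of all gene coordinates given here.

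Mdm2 (chr10:117688875-117710758, minus strand), the ubiquitin ligase that p53 induces and that degrades p53, was at 30.5, 33.9 and 34.8 TPM with ponatinib and at 25.1, 24.9 and 29.9 TPM with DMSO. DMSO replicate 3 was close to the lowest ponatinib library, and the other DMSO libraries lay well under it. The log2 fold change was 0.30 (SE 0.09, limma adjusted p = 0.0333; 0.0452 with medians of ratios). It fell short of the threshold when ponatinib replicate 2 or 3 was left out (limma adjusted p 0.109 and 0.119), when DMSO replicate 1 or 2 was (0.11 and 0.0932), and with no filter on low values (0.0598). The ratio of Mdm2 to Trp53 within a library, which does not depend on the scaling, was 0.165, 0.191 and 0.188 with ponatinib and 0.147, 0.156 and 0.18 with DMSO, and the groups overlapped.

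Ccng1 (chr11:40748552-40755311, minus strand) encodes cyclin G1, which is known to bind a phosphatase that acts on Mdm2. Its levels were 103, 115 and 117 TPM with ponatinib and 84.9, 89.8 and 62.8 TPM with DMSO. DMSO replicate 3 was the lowest of the 6, and the other DMSO libraries were also under every ponatinib library. The log2 fold change was 0.50 (SE 0.13, limma adjusted p = 0.0195). It was 0.35 without DMSO replicate 3 (adjusted p = 0.00428). The call was lost with medians of ratios (0.41, adjusted p = 0.0811), with quantile normalization (0.0608) and when ponatinib replicate 2 or 3 was left out (0.0661 and 0.0751). With medians of ratios and DMSO replicate 3 left out together, a setting chosen after seeing the data, the log2 fold change was 0.21 (adjusted p = 0.0314).

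Cdkn1a (chr17:29090976-29100727, plus strand) encodes p21, which blocks the cyclin-dependent kinases that drive entry into S phase and is the best known arrest target of p53. It was at 36.6, 53.8 and 53.1 TPM with ponatinib and at 58.1, 54.1 and 88.4 TPM with DMSO. DMSO replicate 3 was the highest and ponatinib replicate 1 the lowest, while the other 4 libraries were within a few TPM of each other. The means were 47.8 ± 9.71 TPM with ponatinib and 66.8 ± 18.8 TPM with DMSO (SD, n = 3 each), a log2 fold change of -0.46 with a 95% interval of -0.94 to 0.01 (limma adjusted p = 0.121). Medians of ratios gave -0.56 (adjusted p = 0.0523) and leaving out DMSO replicate 3 gave -0.25 (adjusted p = 0.218). At -0.46 it stood at the percentile 6.13 of all tested genes, while the 7 called members stood between 81.5 for Mdm2 and 96.5 for Plk2.

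Within each library Cdkn1a could be set against Ccng1, the other gene with a paired site, free of the library's scale; this ratio was chosen after its values were seen and is given as a description. Cdkn1a over Ccng1 was 0.357, 0.467 and 0.453 with ponatinib and 0.684, 0.602 and 1.41 with DMSO. The groups did not overlap. This follows from the levels, as every ponatinib library had less Cdkn1a and more Ccng1 than any DMSO library, and adds no evidence. DMSO replicate 3 alone had more Cdkn1a than Ccng1. The mean log2 ratio differed by -0.98 between ponatinib and DMSO, and by -0.60 without DMSO replicate 3. Cdkn1a over Mdm2 likewise did not overlap, at 1.2, 1.59 and 1.52 with ponatinib and 2.31, 2.17 and 2.96 with DMSO. That too follows from the levels, as Mdm2 was higher in every ponatinib library than in any DMSO library.

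**Figure D2:**
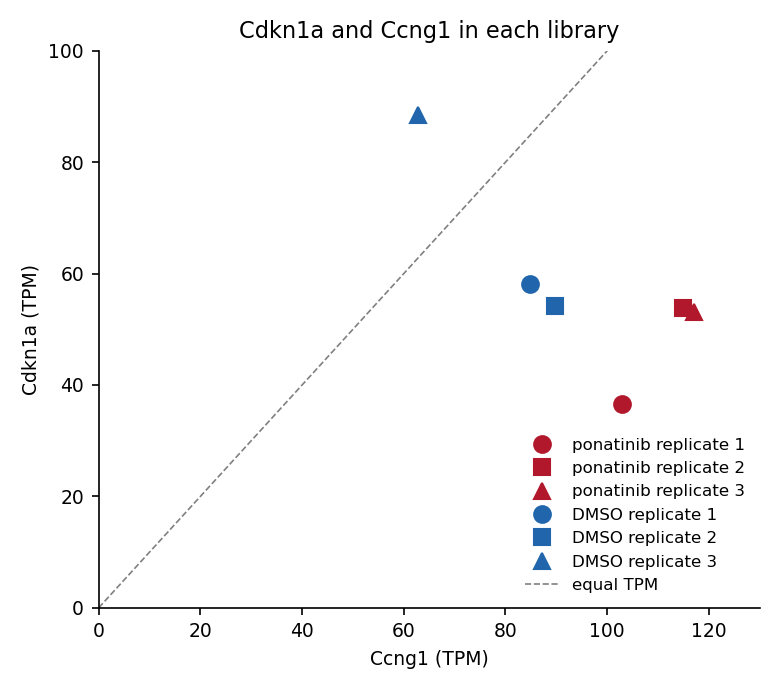
Cdkn1a (y axis, TPM) against Ccng1 (x axis, TPM) in each library, 1 point per library, with a dashed line at equal TPM. The 3 ponatinib points lie to the right, at 103 to 117 TPM of Ccng1, and DMSO replicate 3 is the single point above the line, at 88.4 TPM of Cdkn1a and 62.8 TPM of Ccng1.

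Btg2 (chr1:134075170-134079120, minus strand), an antiproliferative protein that recruits the deadenylase machinery to mRNA, did not pass the test. It was at 28.3, 21.9 and 22.7 TPM with ponatinib and at 21, 17.8 and 24.7 TPM with DMSO, and the groups overlapped. The log2 fold change was 0.19 with a 95% interval of -0.12 to 0.51 (limma adjusted p = 0.298). Plk2 (chr13:110395046-110400844, plus strand), a kinase of the polo family that p53 and serum induce, rose to 29.0, 34.1 and 33.6 TPM with ponatinib, and the DMSO libraries had 17.8, 17.8 and 25.2 TPM. DMSO replicate 3 lay between the other DMSO libraries and the lowest ponatinib library. Its log2 fold change of 0.66 (SE 0.14, limma adjusted p = 0.00888) was the largest of the 10, and it was 0.82 without DMSO replicate 3.

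Aen (chr7:78895854-78911209, plus strand), an exonuclease that promotes cell death, rose to 49.9, 56.8 and 57.9 TPM with ponatinib, where DMSO libraries had 39.7, 40.0 and 42.6 TPM. The DMSO libraries were close together and all under the ponatinib libraries. The log2 fold change was 0.42 (SE 0.07), and the limma adjusted p of 0.00433 was the smallest of the 10. The ratio of Aen to Trp53 also did not overlap, at 0.271, 0.32 and 0.314 with ponatinib and 0.232, 0.25 and 0.257 with DMSO.

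Phlda3 (chr1:135766119-135769136, plus strand), a small membrane-binding protein that competes with the survival kinase AKT, was at 20.2, 22.9 and 23.8 TPM with ponatinib and at 17.1, 15.9 and 10.8 TPM with DMSO. As with Ccng1, DMSO replicate 3 was the lowest library. The log2 fold change was 0.60 (SE 0.16, limma adjusted p = 0.0212) and 0.41 without DMSO replicate 3 (adjusted p = 0.00519). The call was lost with medians of ratios (0.0643), quantile normalization (0.0702), no filter (0.0523) and when ponatinib replicate 2 or 3 was left out (0.0689 and 0.0815).

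Trp53inp1 (chr4:11156431-11174379, plus strand) encodes a stress protein that acts with p53 and in autophagy. It rose to 21.2, 16.2 and 17.0 TPM with ponatinib, over 11.3, 9.98 and 13.1 TPM with DMSO, without overlap (log2 fold change 0.62, SE 0.13, limma adjusted p = 0.00901). Zmat3 (chr3:32334792-32366014, minus strand), a zinc finger protein that binds RNA, was the least abundant, at 8.72, 9.5 and 9.09 TPM with ponatinib and 6.59, 6.45 and 5.11 TPM with DMSO. On this gene row the ponatinib libraries were within 1 TPM of each other and above all DMSO libraries (0.53, SE 0.11, limma adjusted p = 0.00818). A Zmat3 transcript with a row of its own, described below, is not in these values. With transcript rows added the log2 fold change was 0.62 (limma adjusted p = 0.00992). Aen, Plk2 and Trp53inp1 were called higher under all 15 alternative settings, and Zmat3 under the 14 in which it was tested, the exception being a minimum mean of 10 TPM, which it does not reach.

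**Figure D3:**
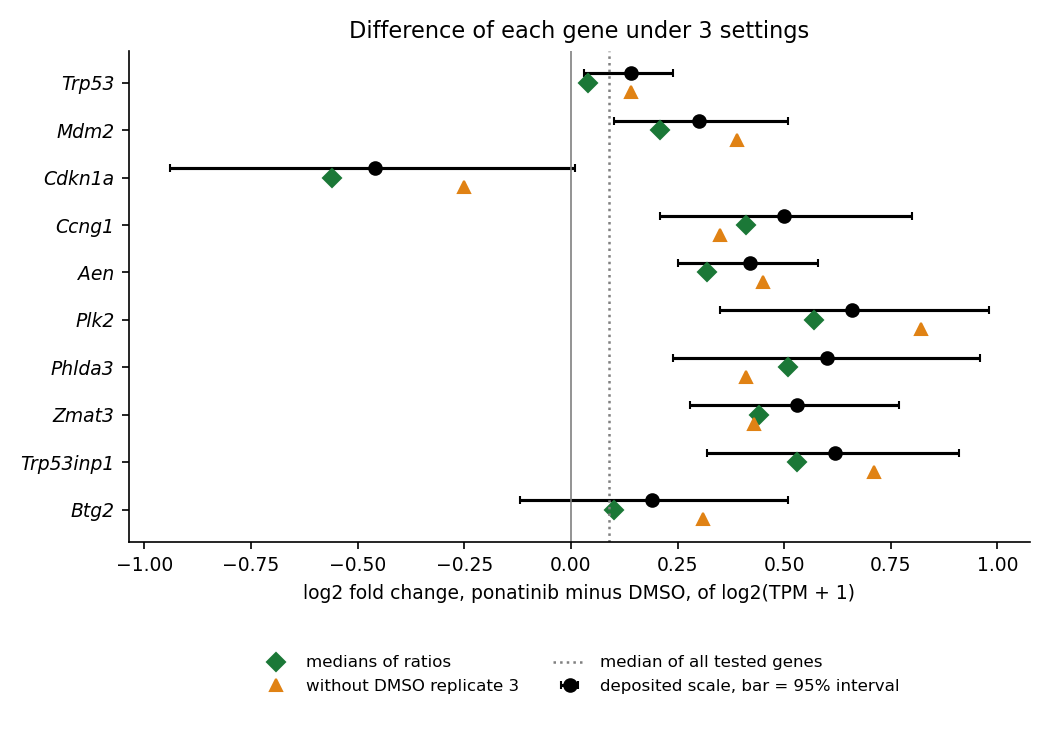
Log2 fold change (x axis, ponatinib minus DMSO, of log2(TPM + 1)) of each gene on the deposited scale with its 95% interval, with medians of ratios, and without DMSO replicate 3; the dotted line is the median of all tested genes, 0.09. Cdkn1a is the only gene left of 0 under these 3 settings, and Trp53 lies nearest the dotted line on the deposited scale, at 0.14.

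The order of the levels, comparable between genes because TPM are per length, ran with ponatinib as Trp53, Ccng1, Aen, Cdkn1a, Mdm2, Plk2, Btg2, Phlda3, Trp53inp1 and Zmat3. Of these neighbours, Aen and Cdkn1a, Mdm2 and Plk2, Btg2 and Phlda3, and Phlda3 and Trp53inp1 had overlapping ranges over the 3 libraries. With DMSO, Cdkn1a had rank 3, above Aen, with no overlap between those 2 and an overlap with Ccng1 above it. Plk2 stood under Btg2 with DMSO, and their ranges overlapped.

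The 6 markers used for CD8 T cells summed to 1743 to 1989.5 TPM with ponatinib and to 1494 to 1524 TPM with DMSO. Only Cd8a and Cd8b1 among them mark the CD8 lineage, while Cd3d, Cd3e, Cd3g and Trac are expressed by other T cells too. Cd8a, Cd8b1 and Cd3e were higher in every ponatinib library than in any DMSO library, and Cd3d, Cd3g and Trac overlapped. Sums of the markers of other cells were low, and higher with ponatinib in each list, though not in each gene. The 5 B cell markers summed to 16.8 to 18.8 TPM with ponatinib and 7.16 to 13.1 TPM with DMSO, with 3 of them under a mean of 1 TPM with ponatinib and 4 with DMSO. The 3 CD4 T cell markers summed to 12.4 to 16.0 TPM with ponatinib and 4.03 to 8.25 TPM with DMSO, most of it Foxp3 with ponatinib. Foxp3 was at 10.4, 6.78 and 7.22 TPM with ponatinib and at 1.21, 1.37 and 0.778 TPM with DMSO, and Cd4 at 4.56, 5.32 and 4.23 TPM with ponatinib and 0.713, 1.2 and 2.84 TPM with DMSO. Zbtb7b, a transcription factor of the CD4 lineage, went the other way without overlap, at 1.03, 1.1 and 0.978 TPM with ponatinib and 2.48, 1.46 and 4.64 TPM with DMSO. For 6 myeloid markers the sums were 4.26 to 6.09 TPM with ponatinib and 1.71 to 2.32 TPM with DMSO, for 3 NK cell markers 33.6 to 42.3 and 18.2 to 30.3 TPM, nearly all of it Eomes, which CD8 T cells also express, and for 5 erythroid and platelet markers 2.13 to 4.97 and 0.396 to 1.3 TPM. No marker was at 0 in all 6 libraries. Their part in the p53 results was not tested.

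Counts over the other lists of the pathway stand beside the shares of all tested genes, which were 23.9% higher and 9.54% lower on the deposited scale, 14.7% and 15.6% with medians of ratios, and 35.3% and 10.1% without DMSO replicate 3. Those shares are at an adjusted p under 0.05. Counts at an unadjusted p have no such share beside them. Of 10 tested apoptosis targets of p53, 3 rose and 0 fell (limma; 3 and 1 at an unadjusted p under 0.05), near the 23.9% of all tested genes that were higher, and the median log2 fold change of 0.09 was that of all tested genes. Tnfrsf10b, a death receptor, averaged 10.4 ± 1.12 TPM with ponatinib and 7.42 ± 1.28 TPM with DMSO (SD, n = 3 each; 0.44, adjusted p = 0.0337). Pidd1, a platform for caspase activation, and Ei24 rose by 0.34 and 0.23 on the log2 scale. The epithelial death gene Perp, at -0.27, did not pass (0.0823), and with medians of ratios it was lower (-0.36, adjusted p = 0.0173). Of these increases, the number called was 1 with medians of ratios and without ponatinib replicate 1 or DMSO replicate 2. It was 0 without ponatinib replicate 2, ponatinib replicate 3 or DMSO replicate 1. Calls over all tested genes became fewer too. From 2398 higher they became 1738, 1406 and 1345 without ponatinib replicate 1, 2 or 3 in turn. Without DMSO replicate 1 they became 1503, and without DMSO replicate 2 they became 1769.

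Of 6 tested arrest and metabolic targets 1 rose, 1 fell and 4 were not called, where 23.9% of all tested genes were higher and 9.54% lower. The gene that rose was Sesn1 and the gene that fell was Sesn2, both of them sestrins that restrain mTORC1. Sesn1 averaged 14.6 ± 0.965 TPM with ponatinib and 9.11 ± 1.05 TPM with DMSO (log2 fold change 0.63, limma adjusted p = 0.00313). Sesn2, which the amino acid stress factor ATF4 also induces, was at 6.76, 7.36 and 7.13 TPM with ponatinib and at 16.8, 14.3 and 23.4 TPM with DMSO, a log2 fold change of -1.22 (adjusted p = 0.00153). Its ponatinib libraries all lay under the lowest DMSO library. The p53 phosphatase gene Ppm1d (0.24, adjusted p = 0.0554) and the tetraspanin gene Cd82 (0.13, 0.109) did not pass. Without ponatinib replicate 1 there were 3 increases, where 1738 of all tested genes were higher, against 2398 with all libraries. Without DMSO replicate 3 there were 2, where 35.3% of all tested genes were higher.

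Of 7 DNA repair targets 3 rose and 0 fell (limma), where 23.9% and 9.54% of all tested genes did, with a median of 0.18. At an unadjusted limma p under 0.05 the counts were 3 and 0. Polh, a polymerase that copies past damaged bases, averaged 29.8 ± 1.54 TPM with ponatinib and 23.5 ± 2.51 TPM with DMSO (0.33, adjusted p = 0.0216). Xpc, a sensor of damaged DNA, rose by 0.32. Triap1, a small survival protein rather than a repair protein, was on this list too and rose by 0.25. Rrm2b, a ribonucleotide reductase subunit, stood at 0.18 (limma adjusted p = 0.418). With medians of ratios 1 was called, beside 14.7% of all tested genes. There was 1 when ponatinib replicate 1 was left out. Leaving out ponatinib replicate 2, ponatinib replicate 3, DMSO replicate 1 or DMSO replicate 2, 1 library at a time, gave 0. In these leave-out settings 1345 to 1769 of all tested genes were higher, against 2398 with all libraries.

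Among 12 tested regulators of the p53 protein, 1 rose and 0 fell (limma), where 23.9% and 9.54% of all tested genes did. At an unadjusted limma p under 0.05, 6 rose and 0 fell, with no share of all tested genes to set beside them. Hipk2, a kinase that phosphorylates p53, averaged 5.55 ± 0.158 TPM with ponatinib and 3.53 ± 0.138 TPM with DMSO (0.53, adjusted p = 0.00354). The acetyltransferase genes Ep300 and Crebbp stood at 0.23 and 0.67 (adjusted p of 0.0649 and 0.0772), and the deubiquitinase gene Usp10 at 0.19 (0.0568). Crebbp was at 6.17, 5.87 and 6.79 TPM with ponatinib and at 3.08, 2.3 and 6.13 TPM with DMSO, so that DMSO replicate 3 lay among the ponatinib libraries. Without that library Crebbp and Ep300 passed (limma adjusted p of 0.000598 and 0.00918). In all 4 regulators were then higher, where 35.3% of all tested genes were. Without ponatinib replicate 1 there were 2, where 1738 of all tested genes were higher, against 2398 with all libraries.

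Of 14 genes of DNA damage signalling, which lies upstream of p53, 0 were called in either direction by limma. Among all tested genes 23.9% were called higher and 9.54% lower at the same adjusted threshold. At an unadjusted limma p under 0.05, 1 of the 14 was higher and 0 were lower. The median log2 fold change of the 14 was 0.01. The checkpoint kinase genes Chek1 and Chek2 stood at -0.17 and 0.27 (adjusted p of 0.156 and 0.0905), the histone gene H2ax at -0.12 and Topbp1 at 0.13. With medians of ratios 3 were lower, Chek1 and H2ax among them (limma adjusted p of 0.016 and 0.0346), where 15.6% of all tested genes were. Chek2 and Topbp1 were higher without DMSO replicate 3 (0.0345 and 0.0424), where 35.3% of all tested genes were.

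Of 7 tested paralogs of the 10 genes, 2 rose and 1 fell, near the 23.9% and 9.54% of all tested genes. Ccng2, the relative of Ccng1, fell to 11.3, 9.51 and 8.31 TPM with ponatinib, where DMSO libraries had 18.0, 14.5 and 19.9 TPM (log2 fold change -0.79, limma adjusted p = 0.00487). Ccng1 rose in the same libraries, and no library of either group was out of place for Ccng2. Plk3, a relative of Plk2, averaged 17.8 ± 1.36 TPM with ponatinib and 10.8 ± 2.64 TPM with DMSO (0.69, adjusted p = 0.0111), and Phlda1 rose by 0.48 (0.0428). Btg1 stood at 0.20 (0.0644). With medians of ratios, and without any 1 library other than DMSO replicate 3, 1 paralog was higher. Over all tested genes 1477 were higher with medians of ratios and 1345 to 1769 in those leave-outs, against 2398 on the deposited scale with all libraries. Without DMSO replicate 3 there were 5 paralogs, where 35.3% of all tested genes were higher. Trp63 and Trp73, the other p53 family genes, had a mean under 1 TPM and were not tested.

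p21 is known to hold down cell cycle genes through the DREAM repressor complex. Of 10 such genes 6 rose and 0 fell (limma), where 23.9% and 9.54% of all tested genes did, with a median of 0.21. At an unadjusted limma p under 0.05 the counts were 6 and 1. Cyclin A2, from Ccna2, averaged 139.5 ± 4.81 TPM with ponatinib and 114 ± 3.11 TPM with DMSO (0.29, adjusted p = 0.00398). Birc5, Plk1 and Ccnb2, which act in mitosis, rose by 0.27, 0.25 and 0.23. Scaling by medians of ratios left 4 higher and 1 lower, where 14.7% and 15.6% of all tested genes were. Without ponatinib replicate 2, ponatinib replicate 3 or DMSO replicate 1, 3 were higher. Over all tested genes 1406, 1345 and 1503 were higher in these settings, against 2398 with all libraries. The list of DREAM subunits also held Mybl2, which is not a subunit of the repressor and was not called (0.07). Of the 10 tested genes of this list 3 rose and 0 fell (limma), near the 23.9% of all tested genes that were higher. At an unadjusted limma p under 0.05, 6 rose and 0 fell, with no share of all tested genes to set beside them. The 3 that rose were Tfdp1 (0.28, limma adjusted p = 0.00651), Rbl2 (0.37, 0.0363) and Rbbp4 (0.15, 0.0307), while Lin9 (0.22, 0.0571) did not pass. Scaling by medians of ratios left 2 higher and 1 lower, beside 14.7% and 15.6% of all tested genes. Without any 1 library other than DMSO replicate 3, 1 was higher, where 1345 to 1769 of all tested genes were. Without DMSO replicate 3, 5 were higher, beside 35.3% of all tested genes.

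Of 10 rapid-response genes, the class to which Btg2 and Plk2 also belong, 1 was higher and 2 were lower (limma), where 23.9% and 9.54% of all tested genes were, and the median was -0.04. Egr2, a zinc finger transcription factor induced by the T cell receptor, averaged 26.8 ± 1.87 TPM with ponatinib and 12.9 ± 0.362 TPM with DMSO (1.0, limma adjusted p = 0.000226). Ier3 and Junb fell by 1.52 and 0.53 (adjusted p of 0.00363 and 0.0195), and Egr1 stood at 0.26 (0.151). Without DMSO replicate 3 there were 3 increases, where 35.3% of all tested genes were higher. Leaving out ponatinib replicate 1 or ponatinib replicate 3, 1 library at a time, gave 1 decrease. Over all tested genes 641 and 643 were lower in these settings, against 958 with all libraries.

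**Figure D4:**
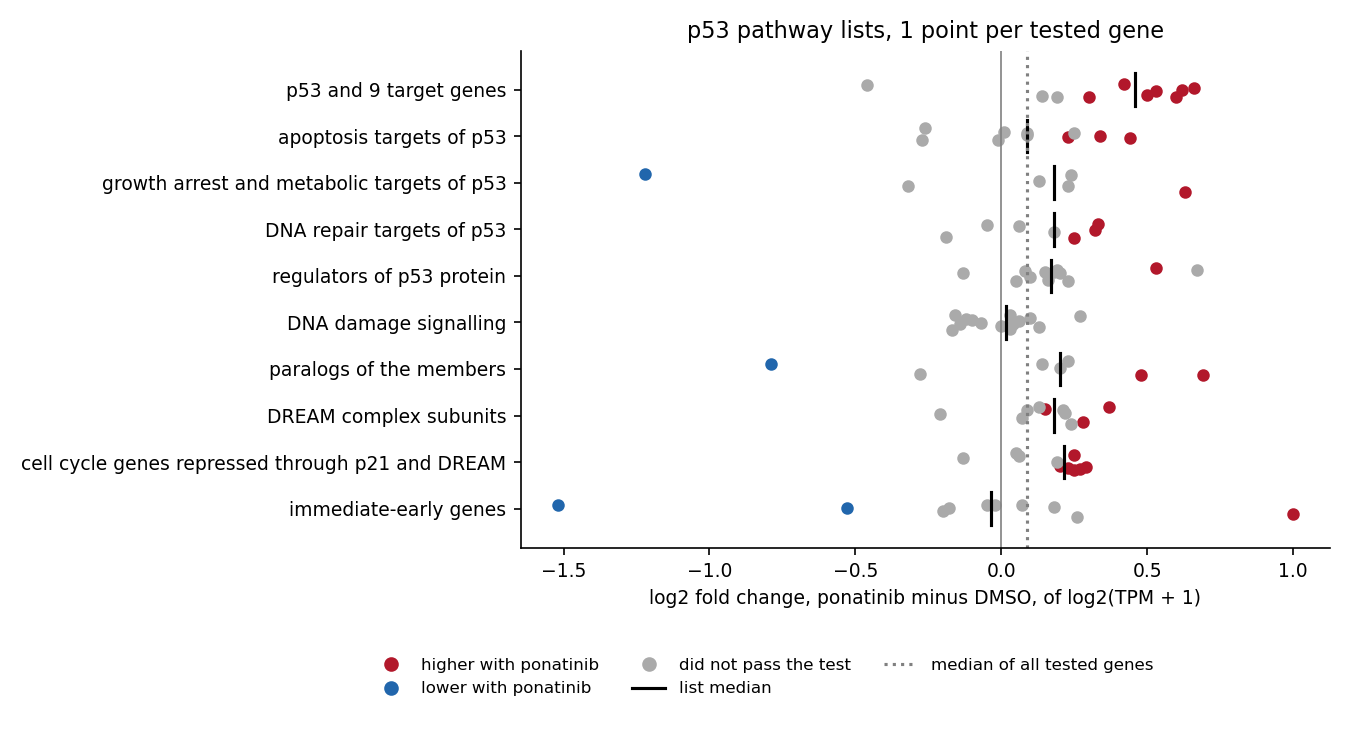
Log2 fold change (x axis, ponatinib minus DMSO, of log2(TPM + 1)) of every tested gene of the p53 gene set and of 9 pathway lists, 1 point per gene, with the list median as a black line and the median of all tested genes, 0.09, as a dotted line. The p53 gene set has its median at 0.46, and the medians of the other lists lie between -0.04 and 0.21.

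The genes most like Trp53, Mdm2 and Cdkn1a were sought among 6466 genes that averaged 10 TPM or more, by Pearson correlation of log2(TPM + 1) over the 6 libraries. The 6 libraries fall into 2 treatment groups and share their scale, so these values are descriptions. Trp53 was most like Hpcal1 (r = 0.9932, Spearman 0.943), Mrpl50 (0.9918, 1) and Uqcc3 (0.9911, 0.943). Mdm2 was most like Ltv1 (0.9975, 1) and Rnf4 (0.9972, 1). Cdkn1a was most like Rnf126 (0.9944, 0.943), Il2rb (0.9888, 0.943) and Nt5c3 (0.9855, 0.943). Il2rb, a chain of the IL-2 receptor, was at 216, 256 and 270.4 TPM with ponatinib and at 287, 275 and 366 TPM with DMSO. As for Cdkn1a, DMSO replicate 3 was highest and ponatinib replicate 1 lowest in Il2rb, Rnf126 and Nt5c3. That likeness follows from choosing these genes by correlation over the same libraries.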

How the data were processed

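Bulk RNA-seq of the CD8 T cells was done with the NEBNext Ultra II kit, per the labels' protocols. The authors deposited 1 table of 43072 rows, 22095 with gene and 20977 with transcript identifiers. Its name speaks of normalized counts, but each deposited column sums to 1000000, so the values were treated as TPM. Per the submitters' processing notes, Salmon 1.5.1, fastp 0.19.5, DESeq2 1.22.1 and GRCm38 were used, in roles not stated. TPM keep no depth, so read numbers are unknown and the spread between 3 libraries sets the precision. Symbols and coordinates came from GENCODE M21 (GRCm38), in which 22011 gene identifiers were found without their version; the release behind the table is not given in these sources.

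Gene rows alone were used. The 10039 genes averaging 1 TPM or more were put on the log2(TPM + 1) scale, where low genes show too small a change, and tested between ponatinib and DMSO by limma 3.58.1 (intensity trend, two-sided) in R 4.3.3. A gene was called at a Benjamini-Hochberg adjusted p under 0.05 over all tested genes; every adjusted p is from limma. The fit was also run on simulated data with independent noise for each gene and library. That simulation holds no deviation shared by the genes of a library, so it gives no error rate for these data. The 10 genes and all lists were chosen with earlier results of these data known. Named list genes are the up to 4 of each list with the smallest p. For Trp53, Mdm2 and Cdkn1a the 3 genes most alike were taken, of which 1 is not reported here. Alternatives were other filters, pseudocount and scalings, transcript rows added to genes, a replicate block, robust empirical Bayes and leaving out each library. H2ax was found under an older symbol, and Lin54 was not analysed here. A processed pseudogene, Trp53-ps, is annotated and was not analysed here, so reads it shares with Trp53 cannot be placed.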

Additional observations from a re-analysis of the deposited data

Results flagged for a closer look

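5 transcripts of the 10 genes had rows of their own outside the gene rows, 3 of them of Aen, and 2 reached a higher level in a ponatinib library than in any DMSO library. A transcript of Mdm2 annotated as subject to nonsense-mediated decay was listed at 0, 0.22 and 0.104 TPM with ponatinib and at 0 TPM in all 3 DMSO libraries. A protein-coding transcript of Zmat3 was at 0.498, 1.02 and 2.97 TPM with ponatinib and at 0, 0.933 and 0.556 TPM with DMSO, so that the groups overlapped. Of the Aen transcripts, 1 was at 2.09, 0.747 and 0 TPM with ponatinib and at 1.64, 2.25 and 0.669 TPM with DMSO, with overlap, and the other two were listed at 0 in all 6 libraries.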

How the results depend on the processing

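No gene of the 10, and none of the 36 other pathway genes named by the rule, reversed a call under 15 settings. Of 149 values for the 10 genes, 133 kept their side of the threshold, 14 lost a call and 2 gained one. The 7 called higher became 6 with a minimum mean of 10 TPM, 5 with no filter, medians of ratios or quantile normalization, and 4 to 8 with 1 library left out, 4 being without ponatinib replicate 2 or 3. Over the 9 lists, 20 genes were higher and 4 lower; 12 and 11 were with medians of ratios, 11 were lower with quantile normalization and 12 with medians of ratios and no DMSO replicate 3, and 8 to 36 were higher and 3 to 5 lower with 1 library left out. Over all 10039 tested genes, 2398 (23.9%) were higher and 958 (9.54%) lower. Medians of ratios gave 1477 (14.7%) and 1571 (15.6%). Quantile normalization gave 1719 and 1446, and medians of ratios without DMSO replicate 3 gave 1870 lower. A minimum mean of 10 TPM gave 1931 higher and no filter 2297. Leaving out 1 library gave 1345 to 3534 higher and 626 to 1011 lower. With medians of ratios or quantile normalization, the list counts moved in the same direction as those of all genes. A difference between the lists and all genes was not tested. The cause of these shifts was not tested. Deviations of same-numbered libraries from their group means had correlations of -0.0979, 0.127 and 0.00937. Those of differently numbered libraries ran from -0.157 to 0.113. With 3 libraries per group these values cannot tell whether the libraries were paired. With the replicate block 7 of the 10 genes were higher and 1, Cdkn1a, was lower (limma adjusted p = 0.0474). TPM hide depth, so low genes such as Zmat3 carry an unknown counting error.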
